A study of Mus musculus with 4 samples.

Results

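Sox2 binding was examined at 7 genes of the Wnt pathway in mouse embryonic stem cells: *Tcf7l1*, *Tcf7*, *Lef1*, *Axin2*, *Ctnnb1*, *Wnt3* and *Fzd7*. For each gene, the called peaks of 4 ChIP-exo libraries were collected if their centre lay in the gene body (mm10) or within 50 kb of it. These are 7 of 21887 protein-coding genes, and their windows held 23 of the 13833 Halo-Sox2D peaks, 1 of the 1711 Halo-Sox2M peaks, 12 of the 6558 Halo-Sox2 peaks and 10 of the 7153 endogenous Sox2 peaks. In ChIP-exo an exonuclease trims the captured DNA back to the bound protein, and the called peaks here were 1 to 20 bp wide (median 11 bp over all lists).

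All libraries came from the D3 embryonic stem cell line, with 1 library per group. Halo-Sox2D is a HaloTag fusion of Sox2 residues 1 to 120, which keeps the DNA-binding HMG box and lacks the C-terminal part of the protein. Halo-Sox2M is a fusion labelled with the changes M47G, F50 and M51G, for which the replacing residue at F50 is not stated. Halo-Sox2 is the fusion of unaltered Sox2, and all 3 fusions were captured on HaloLink resin. Endogenous Sox2, the untagged protein, was captured with an anti-Sox2 antibody, so the fusions differ from it in the capture step as well as in the tag. How the fusions were expressed, and whether the cells that carried them still made untagged Sox2, is a point not given in the sources used here. Positions without heights or read numbers make up the deposited lists, so sequencing depth is unknown and a peak is either listed or not. No difference between libraries has a replicate check, no p-value is given, and the intervals below cover counting error only. The lists hold no expression values, so the identity of the cells was taken from the labels and not checked against marker genes.

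In the canonical Wnt pathway a secreted ligand binds a Frizzled receptor, the cytoplasmic destruction complex is held back, and beta-catenin accumulates and joins the TCF/LEF proteins on DNA. In mouse embryonic stem cells Tcf7l1, also called Tcf3, is known as a repressor that occupies many of the same genes as Oct4, Sox2 and Nanog, and beta-catenin relieves this repression. Wnt signals favour self-renewal of these cells. Of the genes described here, *Wnt3* encodes a ligand, *Fzd7* a receptor, *Ctnnb1* beta-catenin, *Axin2* a scaffold of the destruction complex that is itself a common Wnt target, and *Tcf7l1*, *Tcf7* and *Lef1* the DNA-binding effectors.

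*Tcf7l1* held the most peaks of the 7 genes in every library. Halo-Sox2D peaks were listed at 6 genes (every one but *Tcf7*), Halo-Sox2M peaks at *Tcf7l1* alone, Halo-Sox2 peaks at *Tcf7l1*, *Lef1*, *Wnt3* and *Fzd7*, and endogenous Sox2 peaks at *Tcf7l1*, *Lef1* and *Fzd7*. A Halo-Sox2D peak was present in the window of 57.7% of all protein-coding genes, a Halo-Sox2M peak in 6.37%, a Halo-Sox2 peak in 32.3% and an endogenous Sox2 peak in 27.4%. The 7 genes were chosen for their pathway, with earlier results of these data known. The counts of 6, 1, 4 and 3 genes are therefore given beside those shares as a description and were not tested. *Tcf7l1* alone supplied 12 of the 23 Halo-Sox2D peaks, the single Halo-Sox2M peak, 5 of the 12 Halo-Sox2 peaks and 6 of the 10 endogenous Sox2 peaks. It is also the longest of the 7 genes at 163 kb, against 4.81 kb for *Fzd7*, the shortest. Per 100 kb of window, *Fzd7* (2.86) and *Wnt3* (2.09) were denser in Halo-Sox2 peaks than *Tcf7l1* (1.90). In the other libraries *Tcf7l1* was the densest of the 7 genes, for Halo-Sox2M with a single peak.

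**Figure D1:**
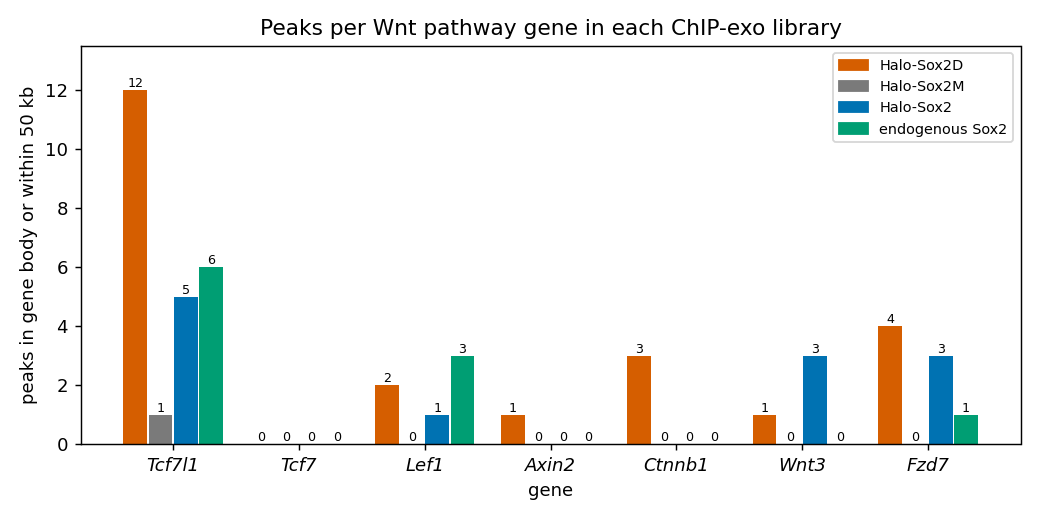
Number of called peaks (vertical axis) in the body of each gene or within 50 kb of it, for the 4 libraries with 1 library each; no error bars can be drawn. *Tcf7l1* has the tallest bars, with 12 Halo-Sox2D, 1 Halo-Sox2M, 5 Halo-Sox2 and 6 endogenous Sox2 peaks, and *Tcf7* has 0 in each library.

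The windows of the 7 genes took 0.166% of the Halo-Sox2D list (95% Wilson interval 0.111 to 0.249%), 0.0584% of the Halo-Sox2M list (0.0103 to 0.330%), 0.183% of the Halo-Sox2 list (0.105 to 0.320%) and 0.140% of the endogenous Sox2 list (0.0760 to 0.257%). All 4 intervals overlap, so the larger Halo-Sox2D count at these genes was not separable from the greater length of that list. Per 100 kb of window, the 7 genes together had 2.05 Halo-Sox2D, 0.0891 Halo-Sox2M, 1.07 Halo-Sox2 and 0.891 endogenous Sox2 peaks. Over the windows of all protein-coding genes the same densities were 1.02, 0.0747, 0.361 and 0.363 peaks per 100 kb. The difference was not tested, and the genes were chosen with earlier results of these data known. The joint densities were not common to all 7 genes, and that of Halo-Sox2M rests on 1 peak. For Halo-Sox2D, *Tcf7l1* (4.57), *Fzd7* (3.82) and *Ctnnb1* (2.36) lay above the density of all genes. *Lef1* (0.934), *Axin2* (0.752), *Wnt3* (0.695) and *Tcf7* (0) lay below it.

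The 46 peaks fell into 30 places, where a place joins neighbouring centres up to 500 bp apart. Peaks of more than 1 library met at 4 of these places: 2 in *Tcf7l1*, 1 near *Lef1* and 1 near *Fzd7*. These 4 places held 18 of the 46 peaks. Halo-Sox2D peaks lay at 17 places, 4 of them shared, and the single Halo-Sox2M peak stood alone. Halo-Sox2 peaks lay at 12 places, 3 of them shared, and endogenous Sox2 peaks at 7 places, 4 of them shared. No peak lay within 1 kb of a listed start site of any of the 7 genes, and the nearest was 1.32 kb from the *Tcf7l1* start. RefSeq promoter windows, each from 250 bases before a start to 50 bases after it, were available for all 7 genes (12 windows), and 0 of the 12 held a peak. Such windows seldom held one in general: over all 32851 promoter windows 4.54% held a Halo-Sox2D peak, 0.240% one of Halo-Sox2M, 0.743% one of Halo-Sox2 and 0.487% one of endogenous Sox2.

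*Tcf7l1* (gene ID 21415, minus strand) lies at chr6:72626371-72789045, and its transcription start is at 72789045. It held 12 Halo-Sox2D peaks, 1 Halo-Sox2M peak, 5 Halo-Sox2 peaks and 6 endogenous Sox2 peaks, of which 10, 0, 4 and 5 lay inside the gene body. Across the genome, 0.256% of protein-coding genes reached 12 Halo-Sox2D peaks, 0.950% reached 5 Halo-Sox2 peaks and 1.06% reached 6 endogenous Sox2 peaks. At *Tcf7l1* the 12 Halo-Sox2D peaks lay at 8 places and the 6 endogenous Sox2 peaks at 5. Ranks by place were not computed. Long genes have wide windows, and per 100 kb *Tcf7l1* was less extreme: 4.75% of genes were as dense or denser in Halo-Sox2D peaks (*Tcf7l1* 4.57 per 100 kb), 4.32% in Halo-Sox2 peaks (1.90) and 4.18% in endogenous Sox2 peaks (2.28). The bases at its peaks were not read, since no mm10 genome was used here. Its promoter window is shown because the closest place of all 3 libraries begins 1.32 kb inside the gene while the window itself is free of called peaks; the 50 bases from the start site onward are in capitals.
Tcf7l1 promoter, chr6:72788996-72789295, minus strand, GRCm38.p6: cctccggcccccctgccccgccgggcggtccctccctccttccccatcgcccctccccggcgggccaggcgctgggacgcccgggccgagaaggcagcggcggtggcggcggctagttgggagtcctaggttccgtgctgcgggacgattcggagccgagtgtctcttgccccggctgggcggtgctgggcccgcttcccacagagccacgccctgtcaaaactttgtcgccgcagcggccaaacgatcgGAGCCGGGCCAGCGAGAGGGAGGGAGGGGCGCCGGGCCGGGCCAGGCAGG
Motifs searched on both strands were CATTGT for Sox proteins, ATGCAAAT for Oct4, the joined Sox-Oct4 motif in a short and a long form, and CTTTGA and the longer CTTTGATC, which contains it, for TCF/LEF proteins. None of the 6 was present in the *Tcf7l1* window. Other spellings of these binding sites were not searched, so the window is not shown to lack such sites. CATTGT occurred in 12.6% and CTTTGA in 16.003% of all promoter windows, so their absence from a single window is the usual state.

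The place nearest the *Tcf7l1* start lay 1.32 to 1.58 kb inside the gene. Halo-Sox2D had peaks there at 72787571 to 72787573 and at 72787719 to 72787736. Halo-Sox2 had 1 between these, at 72787616 to 72787619. Endogenous Sox2 had 1 between the Halo-Sox2D peaks, at 72787586 to 72787603, and another outside them at 72787462 to 72787471. All 5 peaks lay in 275 bp, and no peak overlapped another. The closest centres were 45.5 bp apart for Halo-Sox2D and Halo-Sox2, 22.5 bp for Halo-Sox2D and endogenous Sox2, and 23 bp for Halo-Sox2 and endogenous Sox2. The libraries thus met in the same short stretch without marking the same bases.

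The other shared place of *Tcf7l1* lay 18.7 kb inside the gene and was tighter. Here Halo-Sox2D marked 72770375 to 72770386, Halo-Sox2 marked 72770368 to 72770378 and endogenous Sox2 marked 72770363 to 72770374, with centres 7.5 bp (Halo-Sox2D to Halo-Sox2) and 4.5 bp (Halo-Sox2 to endogenous Sox2) apart. The Halo-Sox2 peak overlapped the Halo-Sox2D peak by 4 bp and the endogenous Sox2 peak by 7 bp, while the Halo-Sox2D and endogenous Sox2 peaks did not overlap each other. A further Halo-Sox2D peak of 1 bp lay at 72770296, 84.5 bp from the first. Places with peaks of Halo-Sox2D, Halo-Sox2 and endogenous Sox2 were found at 3.57% of all protein-coding genes, and 2 or more such places at 0.137% (30 genes, *Tcf7l1* among them). These shares are not corrected for window length, and the *Tcf7l1* window spans 263 kb. Halo-Sox2M had no peak at either place.

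Apart from these places no centres of different libraries lay within 500 bp of each other at *Tcf7l1*. Peaks without such a partner were the usual state in the whole lists. There, 31.0% of Halo-Sox2 peaks had an endogenous Sox2 centre within 500 bp, and 13.02% of Halo-Sox2D peaks had a Halo-Sox2 centre. Halo-Sox2D peaks lay 55.5, 68.0, 111 and 133 kb inside the gene (6 peaks, with a pair at 111 kb and another at 133 kb) and also 9.51 kb beyond the gene's end, over the neighbouring gene *Tgoln1*. The pair at 111 kb, at 72677799 to 72677817 and 72677812 to 72677817, were listed as separate peaks although one covers the other. Halo-Sox2 peaks lay 37.7 and 139 kb inside the gene, and endogenous Sox2 peaks 30.4 and 35.0 kb inside it. Upstream of the start there were an endogenous Sox2 peak at 5.84 kb, the Halo-Sox2M peak (72807010 to 72807025) at 18.0 kb, a Halo-Sox2D peak at 19.0 kb and a Halo-Sox2 peak at 35.8 kb. The Halo-Sox2M and Halo-Sox2D centres there were 989 bp apart, outside the 500 bp limit for a shared place. The Halo-Sox2D peaks at 111 and 133 kb also lie over *Gm31391*, a lncRNA gene inside *Tcf7l1*. Exons and introns could not be told apart from the gene table.

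**Figure D2:**
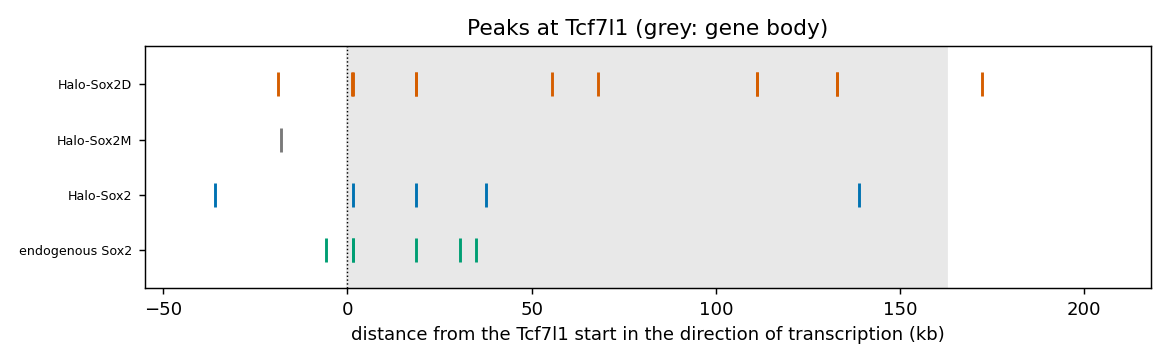
Called peaks of the 4 libraries (1 row each) at *Tcf7l1*, by distance in kb from its start in the direction of transcription; the grey area is the 163 kb gene body and the dotted line the start. Marks of Halo-Sox2D, Halo-Sox2 and endogenous Sox2 line up 1.32 to 1.58 kb and 18.7 kb inside the gene, and the single Halo-Sox2M mark lies 18.0 kb upstream.

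*Lef1*, the other TCF/LEF gene with peaks among the 7 genes (gene ID 16842, plus strand, chr3:131110297-131224357), had 2 Halo-Sox2D peaks, 0 Halo-Sox2M peaks, 1 Halo-Sox2 peak and 3 endogenous Sox2 peaks. All 6 lay upstream of the gene and none in its 114 kb body. A place 7.81 to 7.95 kb upstream held the 2 Halo-Sox2D and the 3 endogenous Sox2 peaks in 158 bp. The Halo-Sox2D peak at 131102463 to 131102468 lay within the endogenous Sox2 peak at 131102461 to 131102470, with the same centre, and the Halo-Sox2D peak at 131102479 to 131102498 covered the endogenous Sox2 peak at 131102484 to 131102486. The remaining endogenous Sox2 peak lay at 131102341 to 131102344. The Halo-Sox2 peak was elsewhere, at 131107644 to 131107655, 2.65 kb upstream. The lncRNA gene *Gm36603* covers all 6 peak centres.

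The Halo-Sox2D count of *Lef1* was reached by 36.4% of protein-coding genes, its Halo-Sox2 count by 32.3% and its endogenous Sox2 count of 3 by 6.12%. Those 3 endogenous Sox2 peaks lay in 1 place, and ranks by place were not computed. RefSeq lists 4 starts for *Lef1*. The promoter window of the innermost is shown because it was the single window of the 7 genes with any of the motifs searched. Other spellings of the sites, which the remaining windows may hold, were not searched. The capitals mark 1 CATTGT and, on the opposite strand, 2 copies of CTTTGA (written TCAAAG).
Lef1 innermost promoter, chr3:131156044-131156343, plus strand, GRCm38.p6: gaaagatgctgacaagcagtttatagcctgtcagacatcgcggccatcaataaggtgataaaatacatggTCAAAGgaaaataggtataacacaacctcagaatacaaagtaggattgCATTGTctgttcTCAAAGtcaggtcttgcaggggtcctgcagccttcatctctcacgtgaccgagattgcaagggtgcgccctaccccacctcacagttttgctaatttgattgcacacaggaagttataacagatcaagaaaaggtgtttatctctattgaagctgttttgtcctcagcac
No called peak lay in this window, and the nearest *Lef1* peak was outside the gene, so the match describes the letters alone.

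*Tcf7*, which encodes the factor also called TCF1 (gene ID 21414, minus strand, chr11:52246527-52283383), had 0 peaks in all 4 libraries. Taken as a limit of 3 peaks of a list, for counting error only, a count of 0 allows a share of up to 0.0217% of the Halo-Sox2D list, 0.175% of the Halo-Sox2M list, 0.0457% of the Halo-Sox2 list and 0.0419% of the endogenous Sox2 list. The limit of the window matters here for Halo-Sox2D and endogenous Sox2, whose nearest peaks lay 73.5 and 56.9 kb from the gene. The nearest Halo-Sox2 peak was 117 kb away and the nearest Halo-Sox2M peak 1283 kb away.

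*Fzd7*, a receptor gene of 4.81 kb (gene ID 14369, plus strand, chr1:59482147-59486955), had 4 Halo-Sox2D peaks, 0 Halo-Sox2M peaks, 3 Halo-Sox2 peaks and 1 endogenous Sox2 peak. All lay outside the gene body. A place 33.0 to 33.5 kb upstream held peaks of all libraries but Halo-Sox2M, but it was loose, with 4 peaks over 541 bp. It held Halo-Sox2D peaks at 59449122 to 59449140 and 59449154 to 59449156, a Halo-Sox2 peak of 1 bp at 59448662 and an endogenous Sox2 peak at 59448616 to 59448630. The Halo-Sox2 and endogenous Sox2 centres were 39 bp apart. The Halo-Sox2D centres were 469 and 493 bp from the Halo-Sox2 centre, just inside the limit, and 508 and 532 bp from the endogenous Sox2 centre, just outside it. A further Halo-Sox2D peak, 593 bp from the Halo-Sox2 centre on the far side, was not joined.

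The remaining *Fzd7* peaks were from a single library each. Halo-Sox2 peaks lay 9.10 and 6.59 kb upstream, and a Halo-Sox2D peak lay 26.5 kb downstream of the start. Counts as high as these were reached by 13.6% of protein-coding genes with Halo-Sox2D, 4.53% with Halo-Sox2 and 27.4% with endogenous Sox2. *Wnt3*, the ligand gene (gene ID 22415, plus strand, chr11:103774175-103818021), had 1 Halo-Sox2D peak, 0 Halo-Sox2M peaks, 3 Halo-Sox2 peaks and 0 endogenous Sox2 peaks. A Halo-Sox2 peak at 103809357 to 103809373 lay inside the gene, 35.2 kb from its start. The other Halo-Sox2 peaks lay 13.6 and 46.6 kb beyond the gene's end, over the gene *Nsf*, and the Halo-Sox2D peak lay 15.9 kb upstream, over *Wnt9b*, so that 1 of its 4 peaks was within *Wnt3* itself. The peak at 46.6 kb was the one closest to the 50 kb limit among all 46.

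*Ctnnb1* (gene ID 12387, plus strand, chr9:120933400-120960507) and *Axin2* (gene ID 12006, plus strand, chr11:108917828-108950783) had Halo-Sox2D peaks and no others. *Ctnnb1* had 3, at 14.7 and 2.21 kb upstream and at 120958470 to 120958488 inside the gene. *Axin2* had 1, at 108889065 to 108889073, 28.8 kb upstream of the gene body and over the gene *Gm46298*. As many Halo-Sox2D peaks or more as at *Ctnnb1* were found at 22.2% of genes, and as many as at *Axin2* at 57.7%. The nearest endogenous Sox2 peak was 243 kb from *Ctnnb1* and 60.9 kb from *Axin2*.

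**Figure D3:**
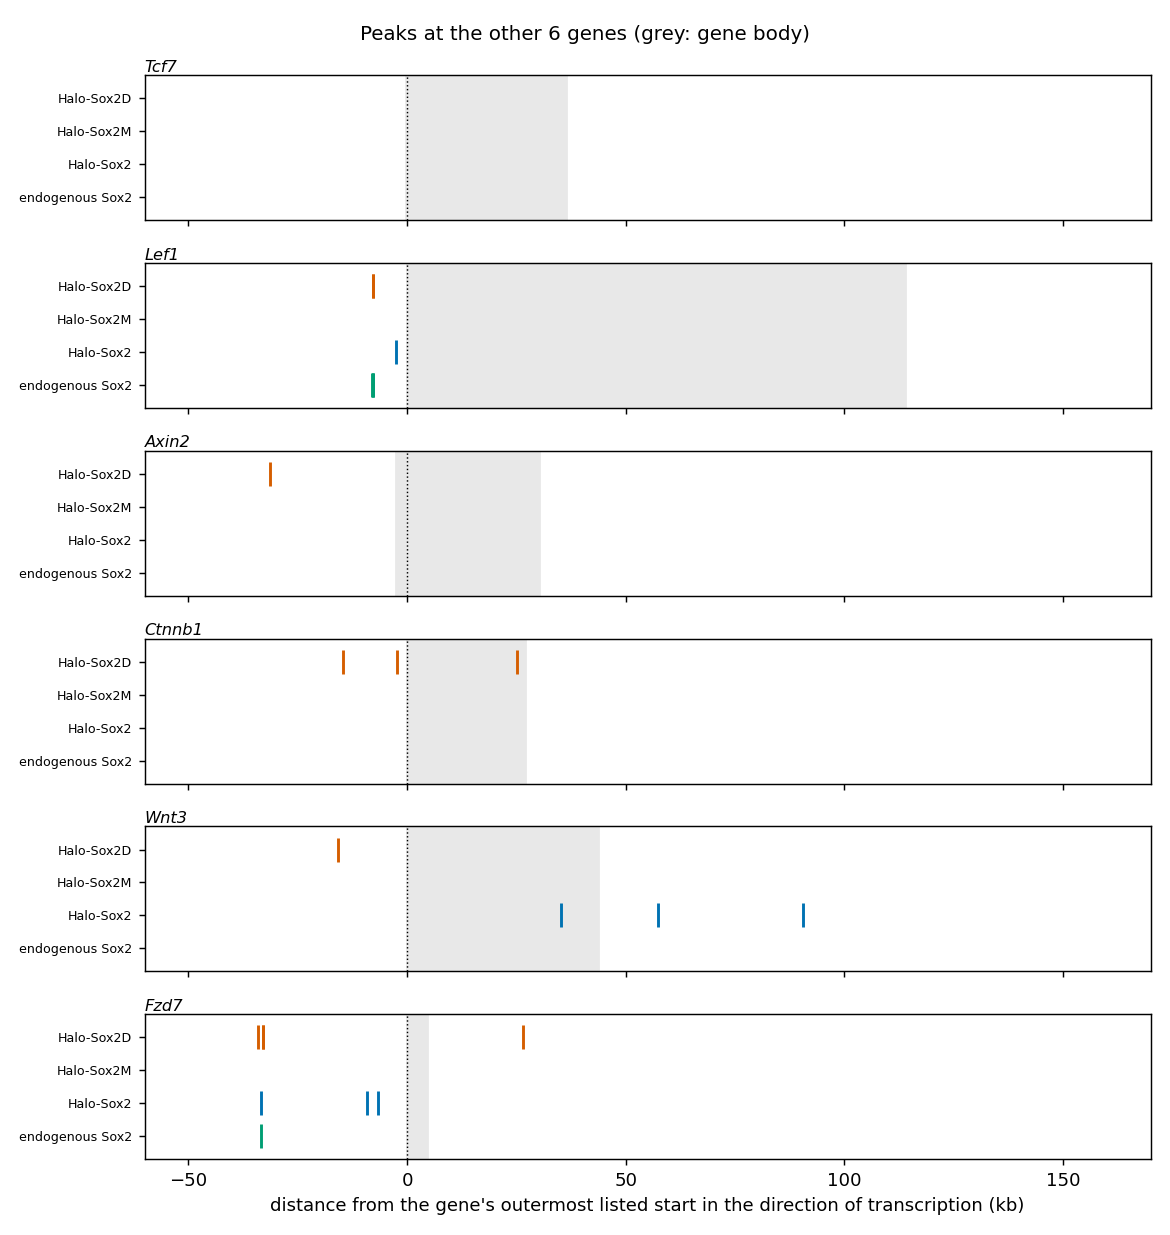
Called peaks of the 4 libraries at the other 6 genes, by distance in kb from each gene's outermost start listed among the promoter windows, in the direction of transcription; grey areas are gene bodies, which can begin before that start. *Tcf7* has no mark, *Axin2* and *Ctnnb1* have Halo-Sox2D marks alone, and marks of more than 1 library meet 7.81 to 7.95 kb upstream of *Lef1* and 33.0 to 33.5 kb upstream of *Fzd7*.

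Set out by comparison, Halo-Sox2 and endogenous Sox2 centres lay within 500 bp of each other at *Tcf7l1* and *Fzd7*, 2 of the 7 genes, against 7.84% of all protein-coding genes. By peaks, 3 of the 12 Halo-Sox2 peaks had an endogenous Sox2 centre within 500 bp (25.0%, 8.89 to 53.2%), against 31.0% of the whole Halo-Sox2 list, and 4 of the 10 endogenous Sox2 peaks had a Halo-Sox2 centre (40.0%, 16.8 to 68.7%), against 35.2% of the whole list. Both whole-list shares fall inside the intervals of the 7 genes. Halo-Sox2M met Halo-Sox2 at 0 of the 7 genes, against 0.818% of all genes, and endogenous Sox2 at 0, against 0.708%. Halo-Sox2D and Halo-Sox2M met at 0 as well, against 1.2%. With 1 Halo-Sox2M peak at the 7 genes, a difference in sharing was not detectable.

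Halo-Sox2D and Halo-Sox2 met at *Tcf7l1* and *Fzd7*, 2 of 7 genes against 8.33% of all genes. Here 6 of the 23 Halo-Sox2D peaks had a Halo-Sox2 centre within 500 bp (26.1%, 12.5 to 46.5%), against 13.02% of the whole list, and 3 of the 12 Halo-Sox2 peaks had a Halo-Sox2D centre (25.0%, 8.89 to 53.2%), against 29.0%. Halo-Sox2D and endogenous Sox2 met at *Tcf7l1* and *Lef1*, 2 of 7 genes against 9.38%. In that pair 6 of the 23 Halo-Sox2D peaks (26.1%) and 6 of the 10 endogenous Sox2 peaks (60.0%, 31.3 to 83.2%) had a partner, against 15.2 and 38.9% of the whole lists. The whole-list shares fall inside the intervals of these pairs, the 13.02% of Halo-Sox2D close to a lower end. The comparisons share libraries and rest on the same 4 places. Halo-Sox2D had 2 peaks at each of these places, and the intervals treat them as separate. Such intervals are likely too narrow, so closeness to an end of one carries little weight.

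**Figure D4:**
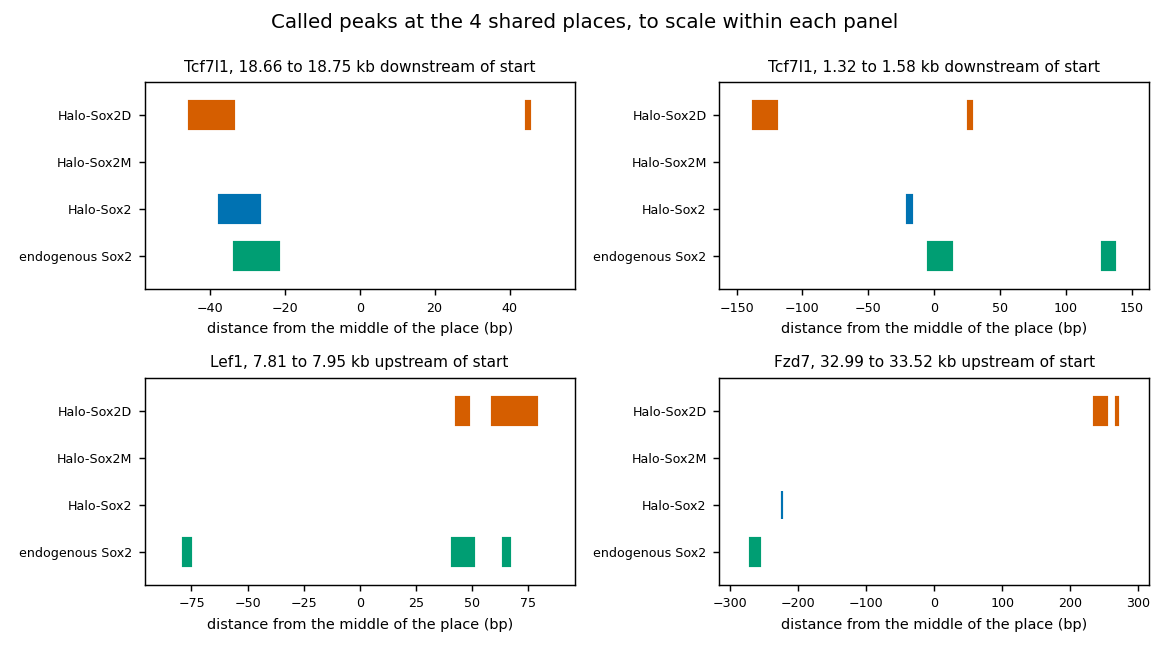
Called peaks at the 4 places where libraries met, by distance in bp from the middle of each place in the direction of transcription; each bar is a peak drawn to scale with a thin outline, and the axes differ between panels. Peaks of Halo-Sox2D, Halo-Sox2 and endogenous Sox2 adjoin at the *Tcf7l1* place 18.7 kb from the start, Halo-Sox2D bars sit on endogenous Sox2 bars at *Lef1*, and at *Fzd7* the Halo-Sox2D bars lie 469 and 493 bp from the Halo-Sox2 bar.

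By its counts over the 4 libraries, *Tcf7l1* was most like *Rbfox2*, with 12 Halo-Sox2D, 0 Halo-Sox2M, 6 Halo-Sox2 and 6 endogenous Sox2 peaks, a summed absolute difference of 2 peaks. It was followed by *Dennd2a* (11, 0, 4 and 6 peaks in the same order of libraries, difference 3), and by *Mkrn1* (11, 0, 5 and 8), *Ccnd3* (9, 1, 6 and 6) and *Dnah2* (11, 0, 6 and 5), each with a difference of 4. The windows of *Dennd2a* and *Mkrn1* overlap and share peaks. Like *Tcf7l1*, the genes *Rbfox2*, *Mkrn1* and *Ccnd3* had 2 places with peaks of Halo-Sox2D, Halo-Sox2 and endogenous Sox2, and *Dennd2a* and *Dnah2* had 1. This likeness is in 4 counts and says nothing of position.

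**Figure D5:**
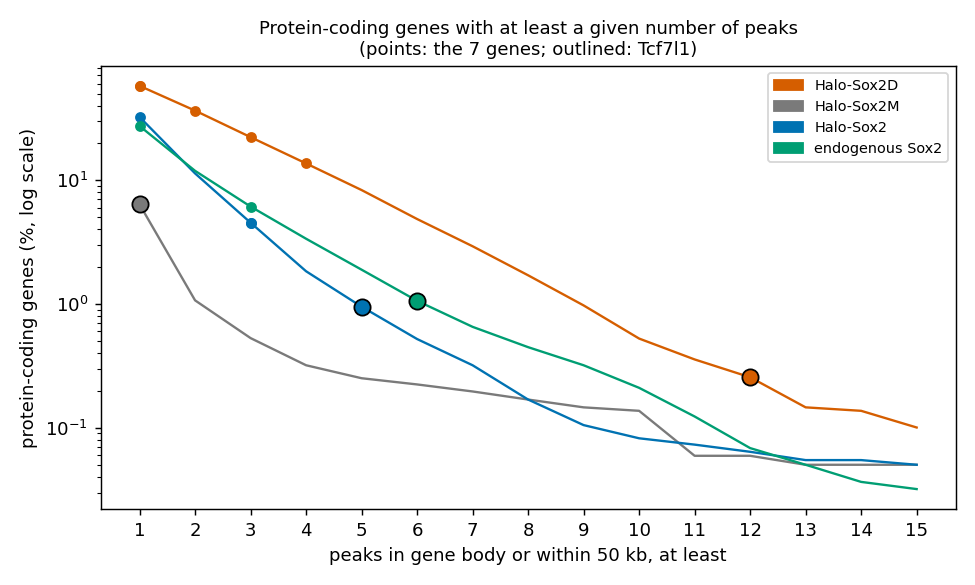
Percent of the 21887 protein-coding genes (log scale) that had at least the number of peaks on the horizontal axis, 1 line per library; points are the 7 Wnt genes and outlined points *Tcf7l1*. The outlined points lie at 12 Halo-Sox2D peaks (0.256% of genes), 1 Halo-Sox2M peak (6.37%), 5 Halo-Sox2 peaks (0.950%) and 6 endogenous Sox2 peaks (1.06%), and the other points, where a library has any, lie to the left of its outlined point.

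The rest of the pathway was followed through 66 further Wnt genes listed by role. Halo-Sox2D peaks were at 50 of the 66 (75.8%, against 57.7% of all protein-coding genes), Halo-Sox2M peaks at 5 (7.58%, against 6.37%), Halo-Sox2 peaks at 31 (46.97%, against 32.3%) and endogenous Sox2 peaks at 22 (33.3%, against 27.4%). These differences were not tested, and the shares are not corrected for window length. Some windows overlap, as those of *Wnt6* and *Wnt10a* and of *Wnt1* and *Wnt10b*, so a peak can count for more than 1 gene. The median number of peaks per gene was 1.5 for Halo-Sox2D and 0 for each of the other libraries, against 1, 0, 0 and 0 over all genes. Halo-Sox2D peaks were at each of the 10 cytoplasmic genes, the 9 nuclear genes and the 4 target genes, at 10 of 13 receptor genes, 11 of 18 ligand genes and 6 of 10 antagonist genes. Halo-Sox2 peaks were at 9 ligand, 6 receptor, 2 antagonist, 5 cytoplasmic, 6 nuclear and 1 target gene, and endogenous Sox2 peaks at 5, 5, 2, 4, 2 and 3. The 2 secretion genes, *Porcn* and *Wls*, had no Halo-Sox2D peak and both had Halo-Sox2 peaks.

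Halo-Sox2 and endogenous Sox2 met within 500 bp at 9 of the 66 genes, against a background of 7.84% of all protein-coding genes. Among ligand genes these were *Wnt5b* (5 Halo-Sox2D, 0 Halo-Sox2M, 2 Halo-Sox2 and 4 endogenous Sox2 peaks), *Wnt6* (3, 0, 2 and 3) and *Wnt10a* (4, 0, 2 and 3). *Wnt6* and *Wnt10a* are neighbours whose windows share a place at 74825081 to 74825152 on chromosome 1, where a Halo-Sox2D, a Halo-Sox2 and an endogenous Sox2 peak overlapped one another. The others were *Lgr4*, an R-spondin receptor (3, 0, 1 and 2), *Apc2*, a destruction complex protein (6, 0, 2 and 1), *Btrc*, a ubiquitin ligase subunit that binds beta-catenin (3, 1, 1 and 1), the corepressor *Tle1* (1, 0, 2 and 2), the beta-catenin cofactor *Bcl9* (1, 0, 2 and 5) and *Wls*, the carrier that brings Wnt proteins to the cell surface (0, 5, 3 and 1).

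*Wls* was the single gene of the 66 where Halo-Sox2M and Halo-Sox2 met. All 9 of its peaks lay between 159939523 and 159939654 on chromosome 3, 0.859 to 0.983 kb beyond the gene's end, and so in 1 place. Halo-Sox2M peaks were also at *Btrc*, *Csnk1a1*, a kinase of beta-catenin (8, 1, 0 and 0), *Tle3*, a corepressor (5, 1, 1 and 0), and *Wnt2b* (0, 1, 0 and 0). The highest summed numbers were 11 at *Pygo2*, a beta-catenin cofactor (8, 0, 3 and 0), and 11 at *Wnt5b*. They were followed by 9 each at *Apc2*, *Csnk1a1*, *Wls*, *Wnt10a*, *Ccnd1*, a cyclin gene (4, 0, 1 and 4), and *Notum*, a Wnt-inactivating enzyme (7, 0, 0 and 2), and by 8 each at *Bcl9* and *Wnt6*. None of the 66 reached the summed number of *Tcf7l1*, which was 24. These sums are not corrected for window length, and the *Tcf7l1* window spans 263 kb. Densities per 100 kb were not compared for the 66 genes, so this is no ranking by density.

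Of the 44 further genes with a RefSeq promoter window, 4 had a peak in it: *Wnt5b*, *Frzb*, *Bcl9* and *Pygo2*. By window, 3 of their 55 held a Halo-Sox2D peak (5.45%, against 4.54% of all promoter windows), 0 a Halo-Sox2M peak (against 0.240%), 1 a Halo-Sox2 peak (1.82%, against 0.743%) and 1 an endogenous Sox2 peak (1.82%, against 0.487%), so the Halo-Sox2D share was near that of all windows and the other shares rest on 1 window each. The *Wnt5b* and *Frzb* windows are shown, since they hold the endogenous Sox2 and the Halo-Sox2 peak, with the called peaks in capitals.
Wnt5b innermost promoter, chr6:119449337-119449636, minus strand, GRCm38.p6: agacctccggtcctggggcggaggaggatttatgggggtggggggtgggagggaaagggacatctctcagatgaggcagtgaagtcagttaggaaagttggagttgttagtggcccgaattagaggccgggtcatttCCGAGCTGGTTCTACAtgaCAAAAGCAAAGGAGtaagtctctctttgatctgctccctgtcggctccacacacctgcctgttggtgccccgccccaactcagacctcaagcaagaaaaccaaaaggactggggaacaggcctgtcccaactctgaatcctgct
Frzb promoter, chr2:80447347-80447646, minus strand, GRCm38.p6: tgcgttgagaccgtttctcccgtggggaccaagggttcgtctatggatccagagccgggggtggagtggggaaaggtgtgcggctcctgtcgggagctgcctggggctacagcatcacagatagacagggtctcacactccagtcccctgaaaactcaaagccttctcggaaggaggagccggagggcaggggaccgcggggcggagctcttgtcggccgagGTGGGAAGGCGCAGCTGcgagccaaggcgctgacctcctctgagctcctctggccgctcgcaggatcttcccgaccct
In *Wnt5b* the first capitals are the Halo-Sox2D peak (119449484 to 119449499, centre 105.5 bp before the start) and the second the endogenous Sox2 peak (119449467 to 119449480, 87.5 bp before it). The bases under the endogenous Sox2 peak were CAAAAGCAAAGGAG, without CATTGT or ATGCAAAT, and a CTTTGATC followed at position 180 of the window, outside both peaks. That motif was in 0.938% of all promoter windows. In *Frzb*, a secreted Wnt antagonist, the capitals are the Halo-Sox2 peak at 80447408 to 80447424, centred 20 bp before the start, and the window's CTTTGA, on the opposite strand at position 156, also lay outside the peak. The *Bcl9* and *Pygo2* windows held Halo-Sox2D peaks of 2 bp each.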

How the data were processed

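Peak lists of 4 ChIP-exo libraries from D3 mouse embryonic stem cells were analysed here, 1 library per group as labelled. Bowtie2 and mm10 are named in the submitters' processing notes. Peak calling and its threshold and read filtering were not given in the sources used here. Per library, the authors deposited chromosome, start and end of each peak without score, so neither depth nor strength is known. Starts were read as 0-based and are printed 1-based, as are all other positions.

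Gene positions were those of RefSeq on GRCm38.p6, which has the coordinates of mm10 on its primary chromosomes (21887 protein-coding genes). Start sites and strands came from RefSeq promoter windows of that build, and all 7 genes and 66 further Wnt genes were matched by symbol (brachyury under the symbol T). A peak belonged to a gene when its centre lay in the body or within 50 kb. Centres up to 500 bp apart were joined into places. Shares carry 95% Wilson intervals (scipy 1.17.1). Python 3.11.15 was used with numpy 2.4.6, pandas 2.3.3 and, for figures, matplotlib 3.10.9. The code was tested on simulated lists with planted shared peaks.

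The genes, lists and windows were chosen with earlier results of these data known. Named further genes were those where Halo-Sox2 and endogenous Sox2 met, those with a Halo-Sox2M peak and the 10 with most peaks. *Frzb* was named after its values were seen, as were *Porcn* and the genes lying over peaks. The genes likest to *Tcf7l1* were the 5 with the smallest summed difference of counts, genes with an overlapping window left out. Alternatives were windows of 20 and 100 kb or the nearest protein-coding gene, overlap of at least 1 bp, centres within 50 or 1000 bp, merging of peaks within 50 bp, and leaving out 100 kb bins with 15 or more peaks of a library.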

Additional observations from a re-analysis of the deposited data

How the results depend on the processing

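Of 98 recomputed counts over groups of genes, 85 stayed within 1.5 times the reported count, as did 126 of 140 recomputed counts for single genes. Many of the reported counts were 0, and a 0 that stayed 0 was taken as unchanged. These totals therefore do not measure the stability of the counts above 0 alone. Some single-gene counts fell by a factor of more than 1.5, or to 0, and smaller falls are not listed. For Halo-Sox2D these were *Fzd7* (0 with a 20 kb window, in place of 4), *Axin2* (0 with a 20 kb window and 0 by nearest gene, in place of 1), *Wnt3* (0 by nearest gene, in place of 1) and *Lef1* (1 after merging, in place of 2). The others were Halo-Sox2 at *Wnt3* (1 by nearest gene, in place of 3) and endogenous Sox2 at *Fzd7* (0 with a 20 kb window, in place of 1). With a 100 kb window, Halo-Sox2D counts were 2 at *Tcf7*, 4 at *Lef1*, 3 at *Axin2* and 2 at *Wnt3*, and endogenous Sox2 counts 2 at *Tcf7*, 2 at *Axin2* and 5 at *Fzd7*. With a 100 kb window, endogenous Sox2 had 18 peaks at 5 of the 7 genes in place of 10 at 3, and the share of all genes with such a peak was 41.0%. With a 20 kb window it had peaks at 2 genes (16.9% of all genes). Halo-Sox2D had peaks at 4 of the 7 genes with a 20 kb window (43.4% of all genes) and at 4 by nearest gene (31.1%), in place of 6. Genes where Halo-Sox2 and endogenous Sox2 met numbered 1 by overlap of at least 1 bp and 1 with a 20 kb window, in place of 2. For Halo-Sox2D and Halo-Sox2 the number was 1 by overlap, 1 with centres within 50 bp and 1 with a 20 kb window, in place of 2. For Halo-Sox2D and endogenous Sox2 it was 1 by overlap and 4 with a 100 kb window, in place of 2. For Halo-Sox2D and Halo-Sox2M it was 1 with centres within 1000 bp, in place of 0. Of the 66 further Wnt genes, 3 had a Halo-Sox2M peak at 20 kb (4.55%, against 3.63% of all genes) and 9 at 100 kb (13.6%, against 9.92%), in place of 5, and 17 had a Halo-Sox2 peak by nearest gene (25.8%, against 15.2%), in place of 31; the shares of all genes moved in the same directions. Leaving out bins with 15 or more peaks changed no count at the 7 genes, since 0 of their peaks lay in one. Without scores in the lists, a stricter threshold could not be tried. No paired analysis was possible because each group holds 1 library. Depth limits all of this, since a missing peak may lie under the threshold.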

Other observations

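Called peaks of a single library often stood close together at these genes. In 9 cases neighbouring centres of the same library at the 7 genes were 1000 bp or less apart, 6 of them in Halo-Sox2D and 3 in endogenous Sox2, with distances between 6.5 and 155.5 bp. None of the 12 Halo-Sox2 peaks had such a neighbour in its own library. At the 7 genes a count of peaks is therefore higher than a count of places for Halo-Sox2D (23 peaks at 17 places) and endogenous Sox2 (10 at 7). For Halo-Sox2 both counts were the same (12 at 12). Among the further Wnt genes, Halo-Sox2 peaks did stand close together at *Wnt5b*, *Wnt6*, *Bcl9* and *Wls*. The share of peaks with such a neighbour was not computed for the whole lists, so no trait of a library is read from these cases.

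By nearest protein-coding gene, 7 of the 46 peaks belong to a neighbour of the 7 genes rather than to the gene they were counted for.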
